A study of Ascodesmis nigricans with 6 samples.

Results

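Ascodesmis nigricans is a filamentous ascomycete that grows as mycelium, a network of hyphae, and forms apothecia, the open cup-shaped fruiting bodies of its group. Strain CBS 389.68 was profiled by RNA sequencing, with 2 biological replicates of each of 3 kinds of sample: total vegetative mycelium, protoapothecia collected by laser microdissection, and total sexual mycelium. The set described here consists of the genes whose counts were concentrated in vegetative mycelium, 98 of the 9622 gene models. A gene belonged to the set when it reached at least 20 CPM (the raw count scaled to a library total of 1000000) in both vegetative libraries, and when the lower of these was at least 3 times the highest of the 4 other libraries. Genes without any count in both protoapothecia libraries were to be left out, but this condition removed 0 genes.

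All cultures carry the same strain and, per the labels' protocols, grew for 3 days at 25 °C on a rabbit food medium with 0.8% agar laid on slides for microdissection. The labels do not say by what condition the vegetative and the sexual mycelium were kept apart. Because microdissection was used for the protoapothecia alone, tissue and way of collection cannot be told apart in any comparison with them. The labels do not say whether mycelium RNA was amplified like that of the microdissected protoapothecia. A difference in amplification can thus not be separated from tissue in these comparisons. In these bulk samples, fewer cells that express a gene and less RNA of it per cell cannot be told apart either. Library totals ran from 11589777 to 12835772 counts.

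Vegetative hyphae are the feeding and exploring form of such a fungus: they grow at their tips, branch, secrete enzymes and take up the nutrients released. Fruiting bodies arise on this mycelium as a separate developmental programme, in which hyphae aggregate around the sexual organs and form new cell types that no longer feed directly on the medium. The label of the set rests on levels alone, because a gene model is known by a protein identifier alone, without name or product. No role can therefore be given to a member, and no marker gene of a tissue could be checked.

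The members were chosen by their levels in all 6 libraries, so the vegetative excess itself is a description and was not tested. The rule was met by 1.02% of all gene models and by 2.65% of the 3698 genes at 20 CPM or more in both vegetative libraries. The condition against sexual mycelium was the narrow one. In 147 of those 3698 genes (3.98%) the lower vegetative library was at least 3 times both sexual libraries, and in 1273 (34.4%) it was at least 3 times both protoapothecia libraries. The 98 members are 66.7% of the 147 genes and 7.70% of the 1273 genes. With library sizes scaled by trimmed mean of M-values (TMM) factors the same rule gave 251 genes, and without sexual replicate 1 it gave 174, each time with all 98 among them. Leaving out a sexual library can only widen the rule, and TMM factors raised the ratio of vegetative to sexual mycelium 1.64-fold. The presence of all 98 therefore does not show that the set is stable.

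Together the 98 genes took 13.2% and 12.6% of all counts in the vegetative libraries, 1.57% and 1.47% in the protoapothecia libraries, and 2.38% and 2.80% in the sexual libraries. The share of the vegetative counts depended on the settings of the rule: it was 20.6% and 21.6% for the 174 genes that met the rule without sexual replicate 1, and 29.3% and 28.4% for the 251 genes that met it with TMM-scaled CPM. The 98 genes include 24 of the 100 genes with the highest mean CPM in vegetative mycelium. The median member was at 687 and 587 CPM in the vegetative libraries, 26.9 and 19.8 CPM in the protoapothecia libraries, and 128 and 106 CPM in the sexual libraries. The members' vegetative means covered a wide range: 39 were at 1000 CPM or more, 45 between 100 and 1000 CPM, and 14 under 100 CPM. Under 10 counts were found for 6 and 10 members in the protoapothecia libraries, and for 0 members in either sexual library.

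**Figure D1:**
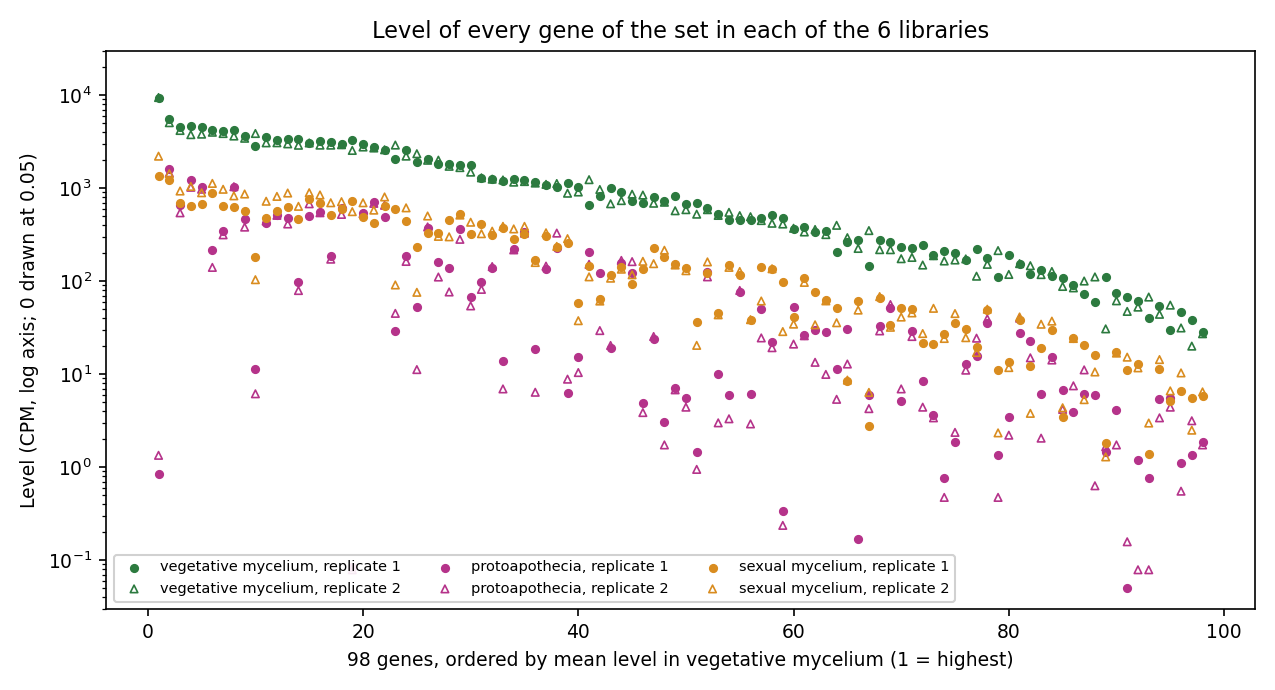
Level of each of the 98 genes (CPM, log axis) in each of the 6 libraries, with genes ordered by their mean in vegetative mycelium; filled circles are replicate 1 and open triangles replicate 2. The vegetative points lie above all others by construction, the sexual points follow them as a band below, and the protoapothecia points scatter from that band down to 0.

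The ratio of the mean vegetative to the mean sexual CPM had a median of 4.88, with the middle 50% of the members between 4.02 and 7.26 and a maximum of 54.4. The ratio of the mean vegetative to the mean protoapothecia CPM had a median of 14.9, with the middle 50% between 7.04 and 63.7. Over the 3698 genes at 20 CPM or more in both vegetative libraries, the median ratio was 0.792 against sexual mycelium, with the middle 50% between 0.535 and 1.36, and 1.88 against protoapothecia, with the middle 50% between 0.724 and 5.87. The ratios to protoapothecia were thus the more widely spread in these genes as well as in the members. The ratios to sexual mycelium also depended on the scaling, a setting added after the data were seen. With TMM-scaled library sizes their median was 8.07 in the members and 1.30 in the 3698 genes, the value in the 3698 genes lying above 1 where that by library totals lay under 1, and the medians against protoapothecia were 15.8 and 2.00. A mean vegetative level at least 10 times that of sexual mycelium was found in 15 members, and at least 10 times that of protoapothecia in 61 members. The highest of the 4 other libraries, which decided whether a gene entered the set, was a sexual one for 82 members and a protoapothecia one for 16.

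**Figure D2:**
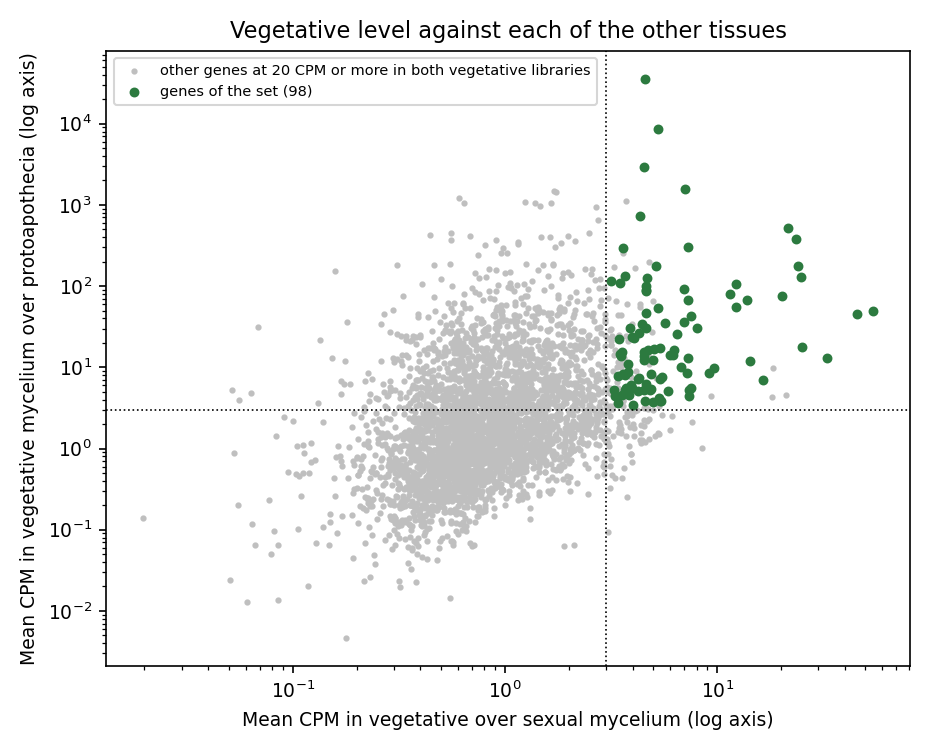
Ratio of mean CPM in vegetative mycelium over protoapothecia (vertical, log axis) against that over sexual mycelium (horizontal, log axis) for the 98 genes (green) and for the other genes at 20 CPM or more in both vegetative libraries (grey, 4 genes without counts in one of these tissues left out). Dotted lines mark a ratio of 3; the rule uses single libraries and not means, so some grey genes lie beyond both lines, and both green and grey genes spread more widely along the vertical than along the horizontal axis.

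Levels of different genes are compared per kilobase of mRNA, since a longer transcript gives more reads. By this measure the gene with the highest level in vegetative mycelium was proteinId342339, with an mRNA of 360 bases. It was at 9201 and 7066 CPM per kb in the vegetative libraries, 0.235 and 0.219 CPM per kb in protoapothecia, and 2018 and 1552 CPM per kb in sexual mycelium. The second, proteinId219939, had 7808 and 7821 CPM per kb in vegetative mycelium, 0.704 and 1.11 in the protoapothecia libraries, and 1124 and 1830 in sexual mycelium. Both genes were thus abundant in every mycelium library and near 0 in every protoapothecia library.

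The next 8 genes by level per length had another profile, with counts in all 3 tissues. Their vegetative means ran from 6517 CPM per kb for proteinId356969 to 5400 CPM per kb for proteinId353235. The gene proteinId356969 had 6807 and 6227 CPM per kb in the vegetative libraries, 988 and 812 in the protoapothecia libraries, and 1034 and 1392 in the sexual libraries. In proteinId357632 the levels were 6242 and 5639 CPM per kb in vegetative mycelium, 1785 and 1632 in the protoapothecia libraries, and 1377 and 1594 in sexual mycelium, so that both protoapothecia libraries were above both sexual libraries. The opposite order was found in proteinId353235, with 5632 and 5167 CPM per kb in vegetative mycelium, 333 and 307 in the protoapothecia libraries, and 906 and 1241 in sexual mycelium. The remaining genes among the 10 highest were proteinId346672, proteinId299670, proteinId339373, proteinId303103 and proteinId301690, with vegetative means of 6208, 6052, 5761, 5718 and 5627 CPM per kb. Of these 10 genes 4 were also among the 10 highest by CPM without length.

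**Figure D3:**
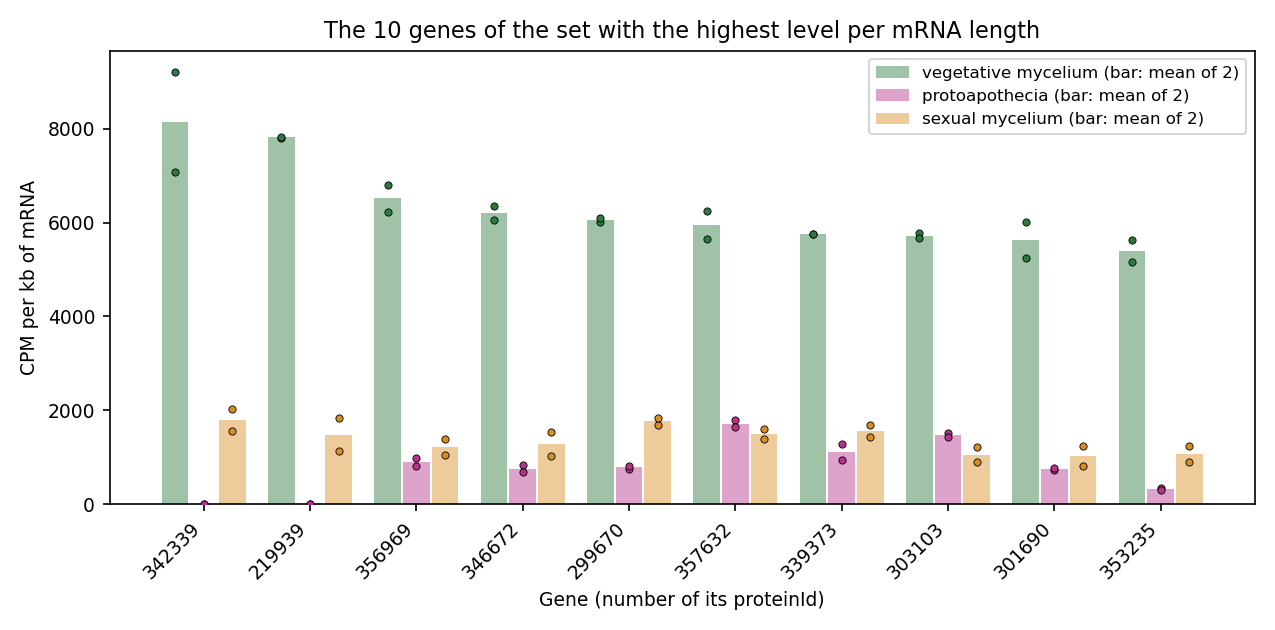
Level per mRNA length (CPM per kb) of the 10 genes with the highest vegetative mean; bars are means of the 2 libraries of a tissue and points are the libraries. The vegetative means lie between 5400 and 8133 CPM per kb, and proteinId342339 and proteinId219939 have no visible bar in protoapothecia.

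The members with the sharpest separation were mostly not the most abundant ones. The lower vegetative library of proteinId306621 was 23.1 times the highest other library: it had 147 and 350 CPM in vegetative mycelium, 5.93 and 4.26 CPM in protoapothecia, and 2.76 and 6.37 CPM in sexual mycelium. For proteinId330390 this ratio was 16.9, with 110 and 30.7 CPM in vegetative mycelium, 1.44 and 1.66 CPM in protoapothecia, and 1.81 and 1.29 CPM in sexual mycelium. These 2 genes were also the ones whose vegetative libraries differed most, by 2.38-fold with replicate 2 on top in proteinId306621 and by 3.60-fold with replicate 1 on top in proteinId330390.

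An abundant gene with a sharp separation was proteinId364818, at 2859 and 3868 CPM in vegetative mycelium, 11.4 and 6.15 CPM in protoapothecia, and 182 and 104 CPM in sexual mycelium, a ratio of 15.7. Its 3 tissues formed 3 separate steps. The short mRNA proteinId293635, of 417 bases, showed the same order, with 1027 and 909 CPM in vegetative mycelium, 15.3 and 10.4 CPM in protoapothecia, and 57.9 and 37.6 CPM in sexual mycelium. In proteinId246960 the vegetative libraries had 698 and 525 CPM, the protoapothecia libraries 1.44 and 0.947 CPM, and the sexual libraries 36.1 and 20.4 CPM.

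Of the other 5 genes among the 10 with the highest ratio, proteinId345013, proteinId128563, proteinId344928 and proteinId396150 had mean levels that were lowest in protoapothecia, whereas proteinId335151 did not. The gene proteinId335151 was at 108 and 87.7 CPM in vegetative mycelium, 6.70 and 4.18 CPM in protoapothecia, and 3.45 and 4.35 CPM in sexual mycelium. A large gap was the exception in the set: the ratio was 10 or more in 9 members, 5 or more in 23, and under 4 in 58.

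Just inside the threshold of 3 were proteinId341508 at 3.02, proteinId353426 at 3.03 and proteinId289222 at 3.04, and just outside it were proteinId301774 at 2.99, proteinId108482 at 2.98 and proteinId353308 at 2.97. The last of these had 1325 and 1172 CPM in vegetative mycelium, 240 and 222 CPM in protoapothecia, and 294 and 395 CPM in sexual mycelium. At the level threshold, proteinId308912 entered with 20.02 CPM in its lower vegetative library and proteinId396294 with 27.2 CPM. The gene proteinId375399, with 11.5 CPM, and proteinId397737, with 5.999 CPM, met the other conditions and stayed out. Only 103 genes met the fold condition at any level above 0, so few genes of low level were lost.

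The vegetative libraries gave similar values for nearly all members. The rule acts on the lower vegetative library and so favours genes whose vegetative libraries are alike, which makes this likeness a description only. Their levels differed by more than 2-fold in 2 members (2.04%), against 59 of the 3698 genes at 20 CPM or more in both vegetative libraries (1.60%), and the median difference was 1.16-fold in the members and 1.13-fold in those genes. The third most different member was proteinId239815, with 223 and 113 CPM, and the most alike were proteinId219939, with 9409 and 9424 CPM, and proteinId339373, with 3057 and 3062 CPM. Replicates differed by more than 2-fold in 20 members in protoapothecia and in 12 members in sexual mycelium. These counts were made for the members alone and are no trait particular to them. Over genes with at least 10 counts in a pair, chi-square over degrees of freedom was 109 for protoapothecia and 263 for sexual mycelium. For the vegetative pair it was 49.0. By the rule the members were lower in protoapothecia and sexual mycelium. Means under 10 CPM were found in 38 members in protoapothecia, 11 in sexual mycelium and 0 in vegetative mycelium. The part of the low level in the replicate difference was not tested.

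Members had shorter mRNAs than other genes expressed in vegetative mycelium. The median length was 1028 bases in the set, against 1469 bases over the 3698 genes at 20 CPM or more in both vegetative libraries and 1230 bases over all gene models. Lengths under 1000 bases were found in 48 members (49.0%), in 24.9% of those 3698 genes and in 38.6% of all gene models. The longest members were proteinId239815 with 3838 and proteinId333913 with 3508 bases, and the shortest were proteinId337465 with 156 and proteinId299670 with 180 bases.

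Length and level were related (Spearman correlation -0.33 across the 98 members, without length scaling of the level), so the members were also set against genes of the same level class. Among genes with a vegetative mean of 1000 CPM or more, 27 of the 39 members (69.2%) and 92 of the 159 other genes (57.9%) were shorter than 1000 bases, with median lengths of 753 and 928 bases. Among genes under 1000 CPM, these were 21 of 59 members (35.6%) and 782 of 3441 other genes (22.7%), with median lengths of 1233 and 1510 bases. These figures describe the set and were not tested.

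**Figure D4:**
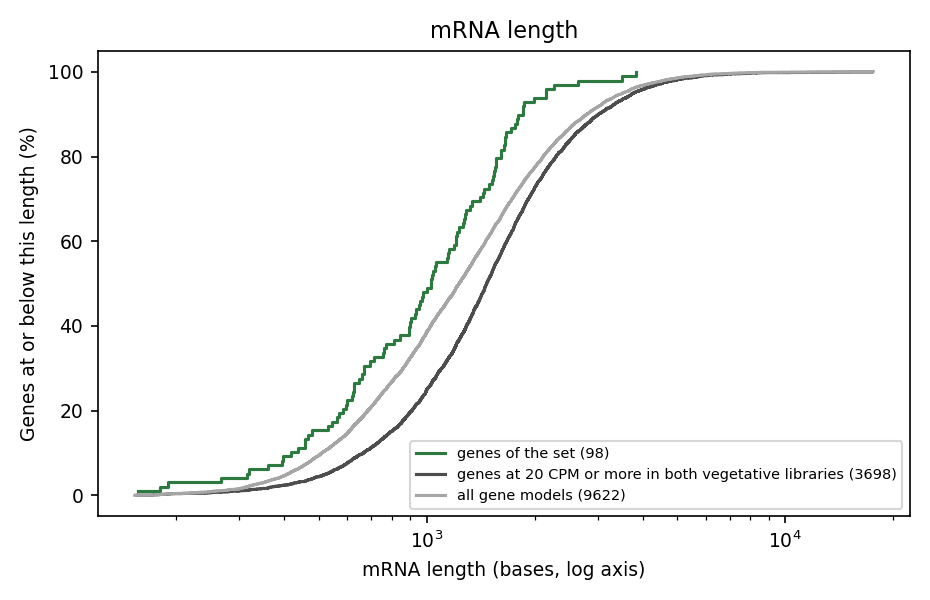
Cumulative share of genes (%) by mRNA length (bases, log axis) for the 98 genes of the set, the 3698 genes at 20 CPM or more in both vegetative libraries and all 9622 gene models. The curve of the set lies to the left of both others over most of its range, with medians of 1028, 1469 and 1230 bases.

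The comparison of protoapothecia with sexual mycelium is the one pair of tissues without the vegetative libraries, and asks where the members stood relative to each other in the tissues where they were low. The rule used these same libraries: it sets a ceiling on both tissues but no order between them. The ceiling was set by library totals and the test uses TMM factors. On the tested scale it therefore lies 1.54-fold higher for protoapothecia than for sexual mycelium. The split into higher and lower members is thus not independent of the rule, and the part of the ceiling in it was not tested. In protoapothecia 13 of the 98 members were higher than in sexual mycelium, 45 were lower and 40 did not pass, by edgeR's quasi-likelihood test on all 6 libraries with adjustment over the 8861 genes tested. Of all genes tested 30.7% were higher and 36.9% lower, 67.5% in either direction. Of the 3698 genes at 20 CPM or more in both vegetative libraries 26.1% were higher and 44.1% lower, 70.2% in either direction, so the members' share of lower genes (45.9%) was near that of vegetatively expressed genes as a whole. The members' share of higher genes was 13.3%, and a difference of these shares was not tested.

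The median log2 fold change, protoapothecia over sexual mycelium, was -0.89 over the members, -0.47 over the 3698 genes and -0.16 over all genes tested. On TMM-scaled CPM, both protoapothecia libraries lay above both sexual libraries in 25 members and below both in 55. The shares on this scale were 39.4% and 44.7% of all genes tested, and 34.6% and 51.2% of the 3698 genes. The balance depended on the scaling of the libraries. The fits use TMM factors, which place the ratio of protoapothecia to sexual mycelium 1.54-fold above the ratio of CPM values by library totals. Higher genes were 22.4% of the members' calls with TMM factors (13 against 45), 31.7% with RLE size factors (19 against 41), 14.5% with upper-quartile factors (9 against 53) and 3.17% with library totals (2 against 61). Over all genes tested the higher against lower calls were, in the same order, 2718 against 3267, 3196 against 2820, 2311 against 3685 and 1842 against 4110. The median over all genes tested was -0.16, 0.15, -0.46 and -0.78 in these fits.

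**Figure D5:**
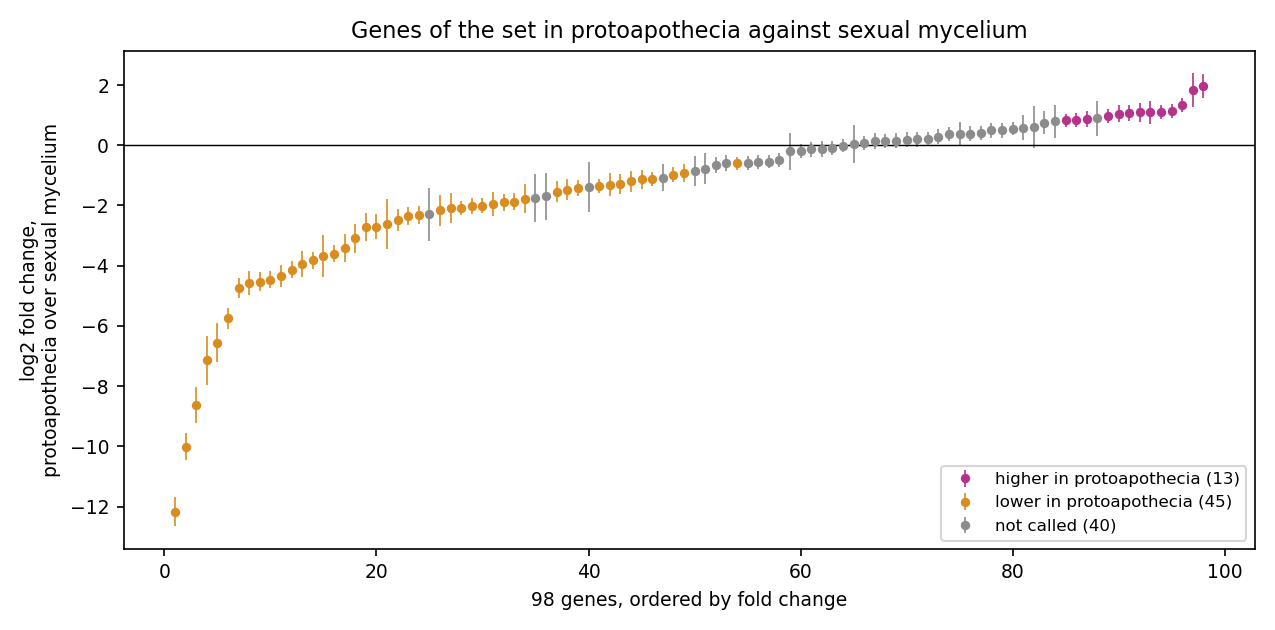
Fitted log2 fold change, protoapothecia over sexual mycelium, of the 98 genes in order of size; bars are standard errors and colours give the call at an edgeR adjusted p under 0.05. The changes run from -12.17 to 1.96, with a long tail of lower genes and no comparable tail of higher genes; the lowest value rests on 1 count in each protoapothecia library.

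Among the members that were lower in protoapothecia, 17 had a fitted fold of 10 or more, and the most strongly lowered genes had few or no reads there. Lower calls with such a fold were also found in 473 of the 3698 genes at 20 CPM or more in both vegetative libraries. Of the 8861 genes tested they were found in 1170. A difference of these shares was not tested. The lowest fold change belonged to proteinId342339, with 1 count in each protoapothecia library against 8420 and 6931 counts in the sexual libraries. The gene proteinId219939 had 10 and 17 counts in protoapothecia against 15696 and 27355 counts in sexual mycelium, a log2 fold change of -10.01 (SE 0.45, edgeR adjusted p = 8.08e-05). It was 1051-fold lower in protoapothecia by pooled scaled counts, with a 95% counting interval from 722 to 1595. This gene alone took 109811 and 120965 counts in the vegetative libraries.

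A further 3 genes of this kind followed at lower levels. For proteinId108261 there were 2 and 0 counts in protoapothecia against 710 and 606 in sexual mycelium, which is 434-fold lower with a counting interval from 120 to 3586 (edgeR adjusted p = 8.80e-05). The gene proteinId319055 had 4 and 3 counts in protoapothecia against 1136 and 356 in sexual mycelium, 141-fold lower with an interval from 68.0 to 350 (edgeR adjusted p = 0.00038). Its sexual replicates differed, at 98.02 and 28.7 CPM, whereas its vegetative replicates were at 482 and 412 CPM. In proteinId334956 0 and 2 counts in protoapothecia stood against 130 and 189 in sexual mycelium, 105-fold lower with an interval from 28.9 to 872 (edgeR adjusted p = 0.000228). The groups did not overlap in any of these genes, which was a condition for naming them.

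Members that were higher in protoapothecia differed from sexual mycelium by much less. The gene with the highest fold change was proteinId343879, at 30.4 and 12.9 CPM in protoapothecia and 8.37 and 8.63 CPM in sexual mycelium, against 265 and 293 CPM in vegetative mycelium. Its log2 fold change was 1.96 (SE 0.40, edgeR adjusted p = 0.00446), and 1.34 with library totals (adjusted p = 0.0215). The gene proteinId344408 had 51.3 and 56.0 CPM in protoapothecia and 33.8 and 31.9 CPM in sexual mycelium, with a log2 fold change of 1.33 (SE 0.23, edgeR adjusted p = 0.00202). These 2 genes were also the only members called higher in the edgeR fit with library totals.

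The other named genes of this group lost their call under that scaling. In proteinId351060 protoapothecia had 23.0 and 15.0 CPM and sexual mycelium 12.3 and 3.79 CPM, a log2 fold change of 1.83 (SE 0.55, edgeR adjusted p = 0.0228). Without protoapothecia replicate 1 the edgeR adjusted p of proteinId351060 was 0.105, and with library totals it was 0.0734. The abundant gene proteinId314046 had 1022 and 1036 CPM in protoapothecia and 620 and 826 CPM in sexual mycelium, and its log2 fold change of 1.14 (SE 0.24, edgeR adjusted p = 0.00477) became 0.51 with library totals (adjusted p = 0.122). For proteinId303103, at 718 and 686 CPM in protoapothecia and 424 and 580 CPM in sexual mycelium, the values were 1.12 (SE 0.24, edgeR adjusted p = 0.00531) and 0.48 (adjusted p = 0.138). The gene proteinId335151, named above for its sharp vegetative excess, was also higher, at 1.10 (SE 0.31, edgeR adjusted p = 0.0171), and lost the call with library totals (adjusted p = 0.241), without protoapothecia replicate 1 (0.0697) and without sexual replicate 1 (0.0634).

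The other genes among the 10 with the highest ratio were lower in protoapothecia or did not pass. In protoapothecia the abundant proteinId364818 was lower than in sexual mycelium, with a log2 fold change of -3.41 (SE 0.46, edgeR adjusted p = 0.000758), and so was proteinId246960, with -3.95 (SE 0.44, edgeR adjusted p = 0.000342). The 2 genes with the highest ratio, proteinId306621 and proteinId330390, did not pass, at 0.79 (SE 0.54, edgeR adjusted p = 0.23) and 0.62 (SE 0.70, edgeR adjusted p = 0.455).

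Median mRNA length was 1316 bases in the 13 genes higher in protoapothecia, 1027 in the 45 lower genes and 976.5 in the 40 that did not pass. These lengths are a description and were not tested. Of the 39 members at 1000 CPM or more in vegetative mycelium, 6 were higher (15.4%), 15 lower (38.5%) and 18 did not pass. Of the 59 others 7 were higher (11.9%), 30 lower (50.8%) and 22 did not pass. Among other genes at 20 CPM or more in both vegetative libraries, 38.4% were higher and 34.0% lower at 1000 CPM or more. Under 1000 CPM these shares were 26.0% and 44.5%. A difference between these level classes, or between members and other genes, was not tested. Across the 98 members the Spearman correlation of the fold change was 0.03 with mRNA length and 0.14 with the vegetative level, given as a description of genes that share the same libraries.

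The sexual libraries were not equal for the abundant members. Sexual replicate 2 was above replicate 1 in 30 of the 39 members at 1000 CPM or more (76.9%) and in 23 of the 59 others (39.0%). Among other genes of the same level classes it was above replicate 1 in 56.6% and 62.9%. The part of this replicate difference in the fold changes was not tested.

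In the authors' deposited table, the DESeq comparison of the same tissues lists 20 members as higher in protoapothecia and 42 as lower at an adjusted p under 0.05, where 33.8% and 30.1% of the 9554 genes with a value are listed so. The authors' deposited table and the edgeR fit shared 13 of the higher and 41 of the lower calls, and 0 members were called in opposite directions. The median ratio of the members, protoapothecia over sexual mycelium, is 0.67 in the authors' deposited table. It is 0.89 over the genes at 20 CPM or more in both vegetative libraries and 1.1 over all genes tested here.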

How the data were processed

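The authors deposited raw read counts for 9622 gene models in 6 libraries, per the file headers, beside an mRNA length for every model. The same deposited table holds the authors' DESeq comparisons as a linear ratio and an adjusted p-value rounded to 2 decimals, per the file headers. The submitters' processing notes name DESeq too, without a version. The aligner, the counter and its strand setting, the build and annotation, and the handling of multi-mapping reads of gene copies, were not stated in these sources.

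Levels are CPM by library totals, or CPM per kilobase of mRNA length. Overlap of the protoapothecia with the sexual libraries was judged on TMM-scaled CPM. Fold changes come from edgeR 4.0.16 (R 4.3.3): filterByExpr kept 8861 genes and removed 761, all 98 members passed, TMM factors scaled the libraries, and all 6 were fitted by group with robust quasi-likelihood (3 residual degrees of freedom) and Benjamini-Hochberg adjustment, called under 0.05. The standard error is the fold change over the square root of its F statistic. Counting intervals are exact (Clopper-Pearson, 95%) on TMM-scaled sizes and take in counting error alone. They do not cover the spread between replicates, nor that amplification can give several reads per molecule. Replicate libraries differed by more than counting noise, with chi-square over degrees of freedom of 49.0 for the vegetative, 109 for the protoapothecia and 263 for the sexual pair.

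The members, lists and tests were chosen with earlier results of these data known. Genes were named by rule: the 10 highest per length in vegetative mycelium, the 10 with the highest ratio of the lower vegetative to the highest other library, the 5 highest and 5 lowest fold changes among calls whose groups did not overlap, the genes at the thresholds, and the extremes of replicate difference and length. Lists of genes by function could not be matched to identifiers and were not used. Alternatives were other thresholds and scalings of the rule, other normalizations and filters, DESeq2 1.42.0, a replicate block and leaving out each library.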

Additional observations from a re-analysis of the deposited data

How the results depend on the processing

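The size of the set depended on the settings of the rule. With TMM-scaled CPM the rule gave 251 genes and with RLE-scaled CPM 315, in place of 98, and with a fold threshold of 2 or 5 it gave 240 or 23. All 98 members remained in the sets of 251, 315 and 240 genes. A lower fold threshold cannot remove a member, and TMM factors raised the ratio of vegetative to sexual mycelium. Their presence therefore does not show that the set is stable. Leaving out 1 library gave 99 to 174 genes, the most without sexual replicate 1, and a level threshold of 10 or 50 CPM gave 99 or 90. The number of members higher in protoapothecia than in sexual mycelium was 13, against 2 with library totals and 20 with DESeq2; without 1 library it was 9 to 14, and the number lower was 37 to 47 against 45. Over all genes, 2718 were higher with TMM factors, 1842 with library totals and 3241 with DESeq2. At an adjusted p under 0.01, 5 members were higher and 36 lower. The members' median log2 fold change of -0.89 was -0.58 with RLE factors, -1.20 with upper-quartile factors, -1.50 with library totals, -0.59 with DESeq2 and -1.08 to -0.62 without 1 library; the cause of these moves was not tested.

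The replicate numbers do not pair the libraries by any label, and deviations of same-numbered libraries correlated at 0.04 between protoapothecia and sexual mycelium. With the replicate block 12 members were higher and 45 lower. No member called with TMM factors was called in the opposite direction in any alternative fit. Of the 35 named members 15 kept direction and call in every alternative fit. Signs turned in named members that did not pass. With RLE factors and DESeq2 they turned to 0.10 and 0.092 in proteinId308912 and 0.19 and 0.18 in proteinId346672. With upper-quartile factors they turned to -0.074 in proteinId289222, -0.13 in proteinId301690, -0.15 in proteinId339373 and -0.10 in proteinId356969. With library totals the values were -0.40, -0.48, -0.49 and -0.43 in these 4 genes. Library totals also gave -0.25 in proteinId337465 and -0.080 in proteinId353426, against 0.38 and 0.55 with TMM factors. The authors' deposited table lists both of these genes as higher. Leaving out 1 library gave -0.97 to 0.55 in proteinId308912, -0.13 to 0.39 in proteinId339373, -0.050 to 0.45 in proteinId301690 and -0.34 to 0.16 in proteinId346672. At this depth 6 members had under 10 counts in both protoapothecia libraries, which leaves their folds imprecise.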
